A study of Jaculus jaculus with 29 samples.

Results

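The gene described here in most depth is Glp1r, the receptor for glucagon-like peptide 1, beside 9 other receptors through which hormones and peptides of water balance, feeding and reproduction act on the hypothalamus: Adra1a, Avpr1a, Oxtr, Agtr1a, Rxfp1, Rxfp3, Mc4r, Lepr and Esr2. The 10 genes were listed by symbol and then found among the 29170 genes of the count table. The authors' deposited table for Dehydrated against Control holds 7 of these symbols, and the other 3 (Agtr1a, Rxfp3 and Mc4r) were located by the position of the RefSeq gene on the same assembly. All 10 passed the filter on low counts and were tested, so no receptor of the list was left out for being too low.

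The libraries come from the lesser Egyptian jerboa (Jaculus jaculus), a desert rodent, and hold polyadenylated RNA from 12 bilateral punches of the supraoptic nucleus, each 1 mm wide, cut out of frozen 100 µm slices. The Control group drank freely (10 libraries, 5 labelled female and 5 male). The Dehydrated group was kept on restricted water for 11 days (10 libraries, 6 female and 4 male), and the Rehydrated group for 7 days before 3 days of free drinking (9 libraries, 4 female and 5 male). All animals lived alone in their cages at 25 °C, under a 12 hour light cycle and with dry food. The labels name no genotype and give no age, and a 1 mm punch also takes tissue around the nucleus.

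The supraoptic nucleus holds magnocellular neurons, which make vasopressin or oxytocin and release them into the blood from the posterior pituitary when plasma osmolality rises. Most of the receptors described here sit in the cell membrane and signal through G proteins: GLP1R and MC4R raise cyclic AMP through Gs, ADRA1A, AVPR1A, OXTR and AGTR1 act mainly through Gq and calcium, RXFP1 is coupled to cyclic AMP and RXFP3 to its inhibition. LEPR is a cytokine receptor that signals through JAK2 and STAT3, and ESR2 is estrogen receptor beta, a nuclear receptor that is well known from magnocellular vasopressin neurons of rodents. Angiotensin II, relaxin and central glucagon-like peptide 1 are all known to change drinking or vasopressin release.

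Total counts ran from 10797577 to 18856620 per library, and the raw counts of single receptors from 11 to 346. For Agtr1a, the lowest, counting error alone would give a coefficient of variation of 20.5% in Control, where 32.3% was seen, and of 16.9% in Dehydrated, where 89.6% was seen. Levels are CPM (counts scaled to a common library total) on TMM-scaled totals, given as mean ± SD. Control M01 stood apart from the other libraries over all tested genes: on the first principal component it lay at 137 and the others between -13.7 and 7.76. Among the 10 Control libraries it was the lowest for 5 of the 10 receptors (Adra1a, Oxtr, Rxfp3, Lepr and Esr2) and the highest for 1 (Mc4r), so values without it are given for these receptors and for Glp1r. In Dehydrated M02, Control M05 and Control F03, 3 libraries in all, the sex label differs from the letter in the name, and the label was used. The magnocellular markers of the labelled tissue were abundant, with Avp and Oxt at 934 and 876 CPM on average in Control. They varied widely between Control libraries, Avp from 359 to 2423 CPM and Oxt from 283 to 1975 CPM.

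Relative to the length of their annotated exons, the 10 receptors were modest transcripts. In Control the median level per kilobase of exon, on the CPM scale (RPKM) was 7.33 for Adra1a, 3.94 for Rxfp3, 3.73 for Oxtr, 3.46 for Mc4r, 2.44 for Glp1r, 2.35 for Lepr, 2.09 for Rxfp1, 2.08 for Avpr1a, 1.42 for Esr2 and 0.549 for Agtr1a. The median tested gene had a mean of 10.1 RPKM in Control, above the median of every receptor of the list. Adra1a stood above Rxfp3 in 10 of 10 Control libraries, Mc4r above Glp1r in 10 of 10 and Esr2 above Agtr1a in 10 of 10. Neighbours in the middle of the order could not be told apart: Oxtr lay below Rxfp3 in 5 of 10 libraries, Lepr below Glp1r in 5 of 10, and Rxfp1 below Lepr in 5 of 10. The annotated lengths limit this order for the genes located by position, since the Rxfp3 gene model covers 30.4% of the RefSeq span and 45.9% of the Mc4r gene model lies within RefSeq's.

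**Figure D1:**
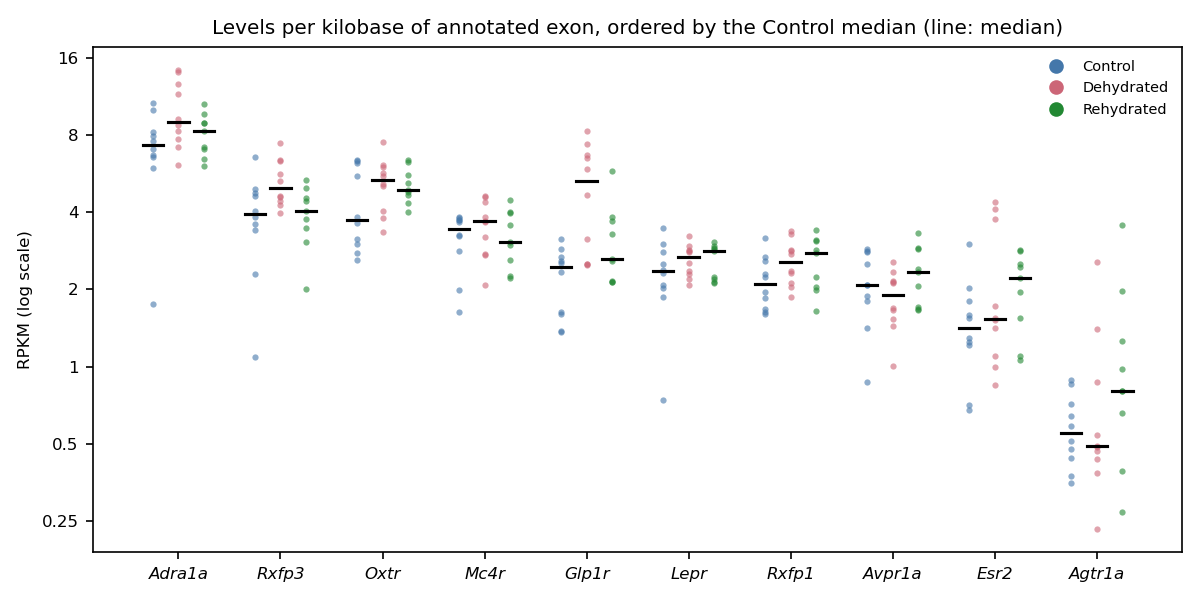
Level of each receptor per kilobase of annotated exon (RPKM, log scale), with one point per library, colours for the 3 treatments and a line at each median; genes run from the highest to the lowest Control median. Adra1a is highest in every treatment and Agtr1a lowest, while the Glp1r median moves from 2.44 in Control to 5.29 in Dehydrated and 2.63 in Rehydrated.

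By treatment, the order changed most for Glp1r, which ranked 5th in Control, 3rd in Dehydrated with a median of 5.29 RPKM and 7th in Rehydrated with 2.63 RPKM. In Dehydrated it lay below Oxtr, the next above it, in 6 of 10 libraries, and above Rxfp3, the next below, in 5 of 10, so its place among these was not fixed. Adra1a remained 1st in all treatments and Agtr1a 10th.

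Glp1r (ENSJJAG00000009597, mJacJac1 chromosome 8, 7299106 to 7345325, plus strand, 2568 bases of exon) rose with water restriction. In Control its level ran from 3.52 to 8.10 CPM with a median of 6.28, in Dehydrated from 6.39 to 21.4 with a median of 13.6, and in Rehydrated from 5.50 to 14.9 with a median of 6.75. All 10 Dehydrated libraries lay above the Control median and 7 above the highest Control library, so the groups overlapped at their edges. The Dehydrated libraries spread widely: F07, F03 and M05 stood at 6.39, 6.45 and 6.47 CPM, inside the Control range, M02 at 8.10, level with the highest Control library, and the other 6 from 12.0 (M08) to 21.4 (F06). Behind these levels were raw counts of 44 to 129 in Control and 91 to 338 in Dehydrated.

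From 5.69 ± 1.699 CPM (n = 10) in Control, Glp1r reached 12.9 ± 5.73 CPM (n = 10) in Dehydrated, 2.25-fold higher in the fit with a 95% interval of 1.599 to 3.16. On the log2 scale the difference was 1.17 (SE 0.24), and its p-value in edgeR, adjusted by Benjamini and Hochberg's method over 17558 genes, was 0.037. It was the 1 receptor of the 10 past the threshold of 0.05, against a background of 22 of all tested genes, or 0.125% (0.114% counting rises only). The receptors were chosen with earlier results of these data known, so that background is given for scale only. The authors' deposited table gives Glp1r a log2 fold change of 1.14 with a standard error of 0.239 and an adjusted p of 0.00163, where 0.262% of its genes were under 0.05. DESeq2 run here gave 1.14 without Control M01 and 1.17 with all libraries. The authors' values may therefore not rest on the same libraries as this fit. Since the tissue is bulk, more cells that express Glp1r in a punch and more Glp1r RNA per cell cannot be told apart.

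**Figure D2:**
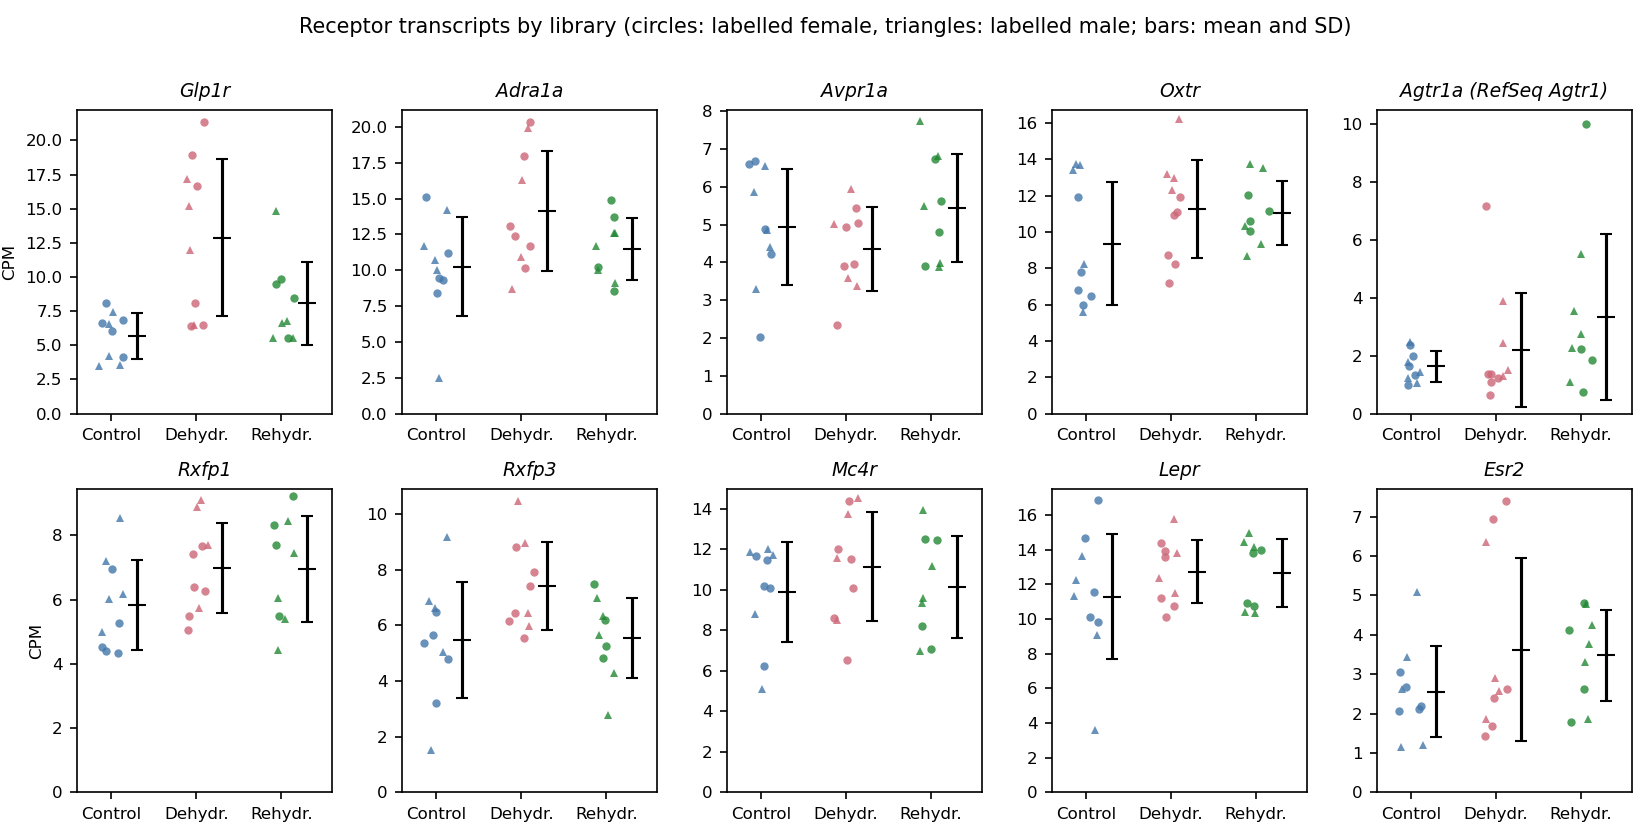
Level of each receptor in CPM in the 3 treatments, with one point per library (circles labelled female, triangles labelled male) and bars for the mean and SD; each panel has its own axis from 0. For Glp1r, 7 of 10 Dehydrated points lie above all Control points, Agtr1a has single high points at 7.16 and 10 CPM, and the lowest Control points of Adra1a, Rxfp3 and Lepr are all Control M01.

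The size of the Glp1r rise was stable, while its adjusted p lay close to the threshold. With each of the 29 libraries left out in turn the log2 fold change stayed between 1.07 and 1.25, and the adjusted p of edgeR ran from 0.00984 to 0.106, under 0.05 in 14 fits and above it in 15. The adjusted p rose above the threshold without each of 8 Control libraries: F02 (0.0504), F05 (0.0557), M03 (0.0562), M01 (0.0684), F01 (0.0729), F03 (0.0779), M06 (0.0786) and F06 (0.0860). It also did so without Dehydrated M08 (0.0517), F04 (0.0684), F06 (0.0830), M09 (0.0939), F05 (0.0948) or M06 (0.106), and without Rehydrated F04 (0.0507). The Dehydrated libraries among them are the 6 with the highest Glp1r levels, whereas leaving out F07, F03, M02 or M05, the 4 lowest, brought the adjusted p to between 0.00984 and 0.0243. DESeq2 on the same counts gave 1.17 with an adjusted p of 0.00112, and 1.14 with 0.00215 when Control M01 was also left out. In edgeR the call was lost when the Rehydrated libraries were not in the fit (1.17, adjusted p = 0.0898), with a replicate block (1.16, adjusted p = 0.287), in females alone (1.04, adjusted p = 1.00) and in males alone (1.33, adjusted p = 0.438).

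**Figure D3:**
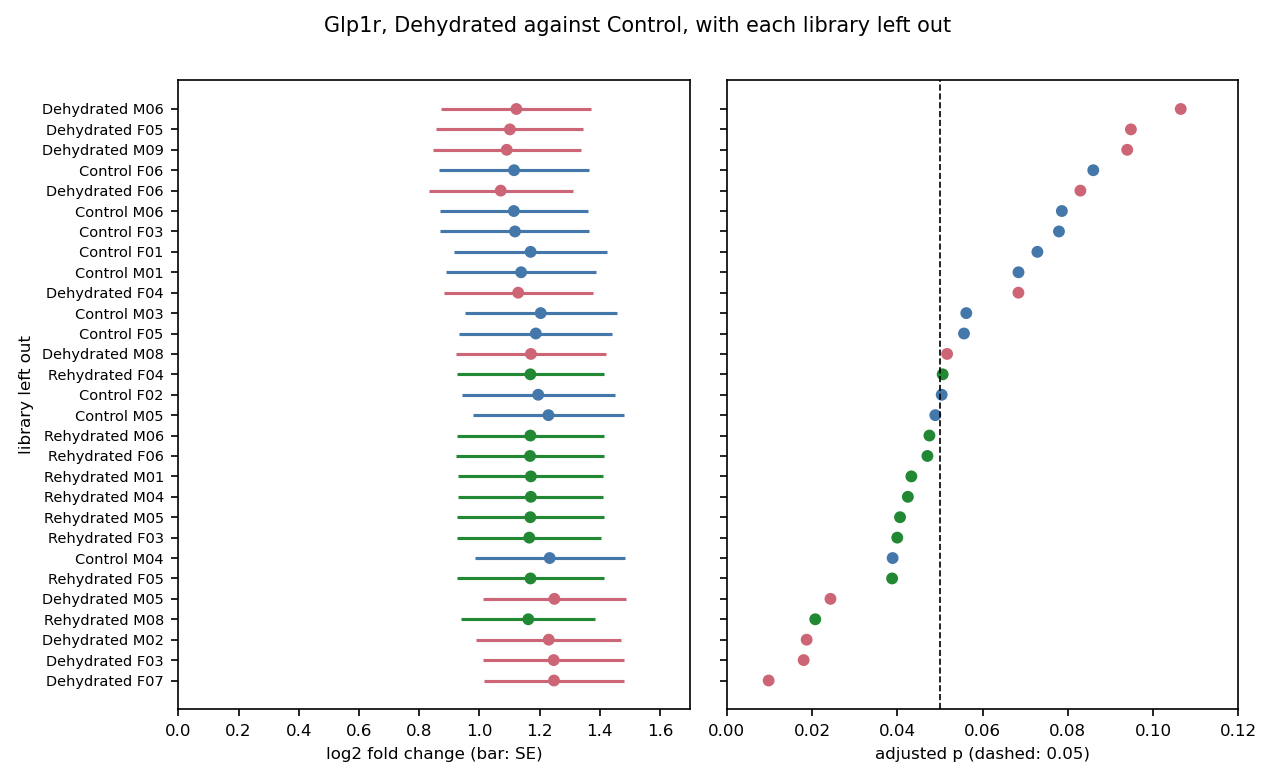
Glp1r in Dehydrated against Control when 1 library at a time was left out of the edgeR fit, with the log2 fold change and its SE on the left and the adjusted p on the right (dashed line at 0.05), coloured by the treatment of the left-out library. The fold changes lie between 1.07 and 1.25, and 14 of the 29 adjusted p values lie under the line.

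After 3 days with water, Glp1r was at 8.07 ± 3.07 CPM (n = 9). Of the 9 Rehydrated libraries, 6 lay above the Control median and 4 above the highest Control library, so the groups overlapped widely. Against Control the log2 difference was 0.51 (95% interval 0.01 to 1.02, adjusted p = 0.657 in edgeR), and against Dehydrated it was -0.65 (-1.15 to -0.16, unadjusted p = 0.0119, adjusted p = 1.00 in edgeR). Neither passed the threshold. Rehydrated M08, the highest of its group at 14.9 CPM, lay apart from the others, which ran from 5.50 to 9.87; without it the differences were 0.34 against Control and -0.83 against Dehydrated. That library also had the lowest Avp, 201 CPM, and the lowest Oxt, 159 CPM, of the Rehydrated group, and the part of this in its Glp1r level was not tested.

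Adra1a, the alpha-1A adrenergic receptor, which mediates excitation by noradrenaline from the brainstem (ENSJJAG00000008597, chromosome 12, 17083635 to 17207157, minus strand), ran from 2.47 to 15.1 CPM in Control with a median of 10.4, from 8.67 to 20.3 in Dehydrated with a median of 12.7, and from 8.56 to 14.9 in Rehydrated with a median of 11.7. In Dehydrated 8 of 10 libraries lay above the Control median and 4 above the highest Control library, so the groups overlapped. The means were 10.3 ± 3.46 and 14.1 ± 4.17 CPM (n = 10 each), which differed by 0.45 on the log2 scale (SE 0.20, adjusted p = 0.72 in edgeR). The lowest Control value was that of Control M01, and without it the difference was 0.35 (adjusted p = 0.799).

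Avpr1a encodes the V1a vasopressin receptor (ENSJJAG00000017832, chromosome 6, 106887008 to 106892097, minus strand), through which vasopressin acts back on the neurons that release it. It was the 1 receptor whose estimate after restriction was below 0: it ran from 2.03 to 6.70 CPM in Control (median 4.86), from 2.35 to 5.96 in Dehydrated (median 4.45) and from 3.88 to 7.76 in Rehydrated (median 5.49). The 3 groups overlapped almost wholly, and the log2 difference of Dehydrated against Control was -0.18 (95% interval -0.57 to 0.21, adjusted p = 0.848 in edgeR).

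Oxtr, the oxytocin receptor (ENSJJAG00000016459, chromosome 14, 33747481 to 33762364, plus strand), ran from 5.62 to 13.8 CPM in Control with a median of 8.03, from 7.21 to 16.2 in Dehydrated with a median of 11.5, and from 8.65 to 13.8 in Rehydrated with a median of 10.6. In Dehydrated 9 of 10 libraries lay above the Control median, and in Rehydrated 9 of 9, which made Oxtr the 1 receptor of the 10 with every Rehydrated library above it, as for 1.72% of all tested genes. Nearly all of these values lay within the range that Control already covered, since 4 Control libraries stood between 11.9 and 13.8 CPM and the other 6 between 5.62 and 8.26. The log2 difference was 0.30 (-0.01 to 0.62, adjusted p = 0.774) in Dehydrated and 0.24 (-0.08 to 0.57, adjusted p = 0.738) in Rehydrated against Control, both in edgeR. Without Control M01 these were 0.24 and 0.17.

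Agtr1a, the type 1 angiotensin II receptor that mediates thirst and vasopressin release (ENSJJAG00000028515, RefSeq symbol Agtr1, chromosome 12, 107170385 to 107217894, plus strand), was the lowest of the 10 and had the largest coefficient of variation in Dehydrated (89.6%) and Rehydrated (86.2%), though not in Control (32.3%). It ran from 0.980 to 2.47 CPM in Control with a median of 1.53, from 0.646 to 7.16 in Dehydrated with a median of 1.36, and from 0.757 to 10 in Rehydrated with a median of 2.25. Dehydrated F03 at 7.16 CPM and Rehydrated F05 at 10 CPM stood far above the other libraries of their groups, which reached 3.90 and 5.52. In Rehydrated against Control the log2 difference was 1.02 with an SE of 0.41 (unadjusted p = 0.0198, adjusted p = 0.592 in edgeR), and without Rehydrated F05 it was 0.54. In Dehydrated against Control it was 0.41 (adjusted p = 0.843), and -0.0050 without Dehydrated F03, so that single library made the estimate.

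Rxfp1, the relaxin receptor (ENSJJAG00000021550, chromosome 12, 104637553 to 104711025, plus strand), ran from 4.34 to 8.55 CPM in Control (median 5.65), from 5.05 to 9.10 in Dehydrated (median 6.92) and from 4.43 to 9.22 in Rehydrated (median 7.46). The groups overlapped over most of their range, and the log2 difference was 0.27 in Dehydrated (-0.04 to 0.57) and 0.25 in Rehydrated (-0.06 to 0.56) against Control, with adjusted p values of 0.788 and 0.717 in edgeR.

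Rxfp3, the relaxin-3 receptor (ENSJJAG00000016197, chromosome 13, 73001896 to 73003293, minus strand), ran from 1.52 to 9.18 CPM in Control (median 5.51) and from 5.54 to 10.5 in Dehydrated (median 6.93), where all 10 exceeded the Control median and 1 the highest Control library. Glp1r and Rxfp3 were the 2 of 10 receptors for which every Dehydrated library did so, as did 1.96% of all tested genes. In Rehydrated it ran from 2.80 to 7.497 CPM with a median of 5.65, much as in Control. The log2 difference was 0.44 in Dehydrated against Control (SE 0.20, unadjusted p = 0.0401, adjusted p = 0.747), 0.01 in Rehydrated against Control and -0.43 in Rehydrated against Dehydrated (unadjusted p = 0.0481, adjusted p = 1.00), all in edgeR. Without Control M01, its lowest library, the first was 0.34 (adjusted p = 0.866) and the second -0.10.

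Mc4r, the melanocortin-4 receptor of the feeding circuit (ENSJJAG00000026441, chromosome 15, 5539148 to 5542278, minus strand), ran from 5.13 to 12.0 CPM in Control (median 10.8), 6.52 to 14.5 in Dehydrated (median 11.5) and 6.97 to 13.9 in Rehydrated (median 9.59), so the groups overlapped over most of their range. The log2 difference was 0.17 (-0.16 to 0.51, adjusted p = 0.836) in Dehydrated and 0.03 (-0.32 to 0.38, adjusted p = 0.972) in Rehydrated against Control in edgeR, which leaves room for a change of up to 1.43-fold higher after restriction. Without Control M01 they were 0.21 and 0.06.

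Lepr, the leptin receptor (ENSJJAG00000001138, chromosome 5, 100702054 to 100842322, plus strand), ran from 3.62 to 16.9 CPM in Control (median 11.5), 10.1 to 15.8 in Dehydrated (median 12.99) and 10.4 to 14.9 in Rehydrated (median 13.8), with no library of the last 2 groups outside the Control range. The lowest Control value was that of Control M01. The log2 difference of Dehydrated against Control was 0.17 (-0.15 to 0.49, adjusted p = 0.834 in edgeR) with all libraries and 0.07 without Control M01.

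Esr2 (ENSJJAG00000018103, chromosome 7, 118921908 to 118974127, minus strand) ran from 1.14 to 5.08 CPM in Control (median 2.40), 1.43 to 7.40 in Dehydrated (median 2.59) and 1.79 to 4.82 in Rehydrated (median 3.76). In Dehydrated 3 libraries, M06, F03 and F05, stood at 6.35, 6.95 and 7.40 CPM, above every Control library, and the other 7 between 1.43 and 2.91. The log2 difference was 0.49 (-0.14 to 1.12, adjusted p = 0.798) in Dehydrated and 0.43 (-0.21 to 1.07, adjusted p = 0.765) in Rehydrated against Control, both in edgeR. Without Control M01 they were 0.41 and 0.34.

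**Figure D4:**
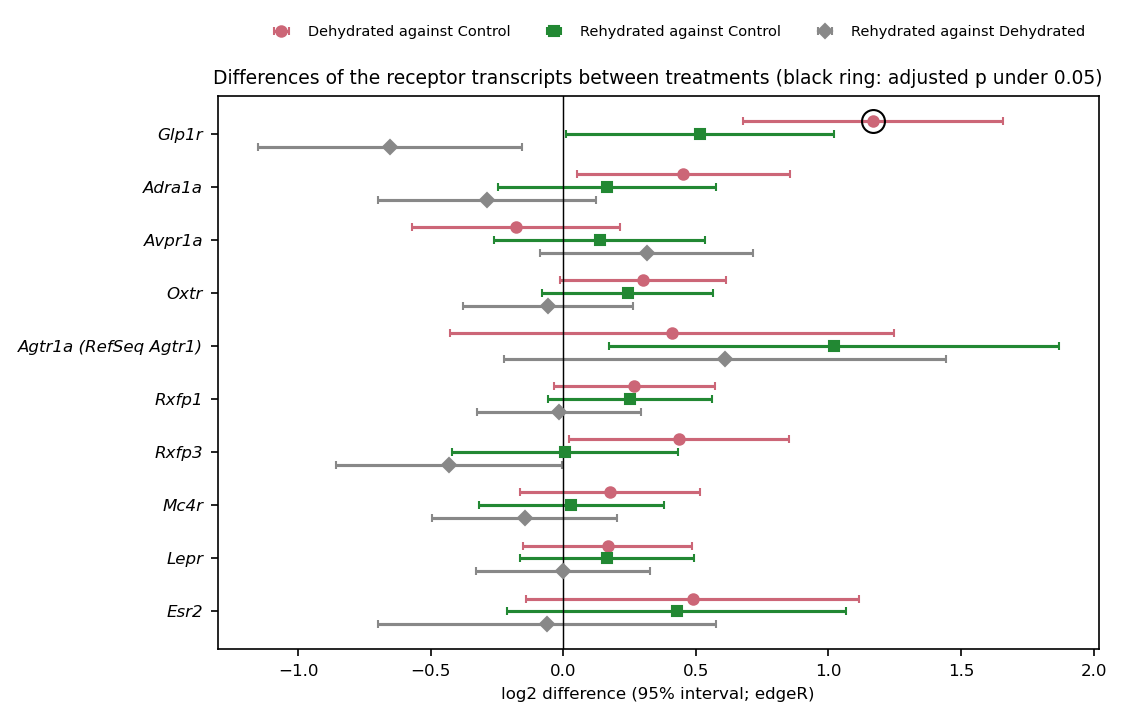
Log2 differences of the 10 receptors between treatments from the edgeR fit, with 95% intervals; colours and shapes mark the 3 comparisons and a black ring marks an adjusted p under 0.05. Glp1r in Dehydrated against Control, at 1.17, is the 1 ringed point, and most other intervals reach across 0.

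As a group, 9 of the 10 receptors had an estimate above 0 in Dehydrated against Control, with a median of 0.36 on the log2 scale, where 49.2% of all tested genes did and their median was -0.003. The receptors were chosen with earlier results of these data known, so the counts in this paragraph are a description and no independent support. With RLE size factors and with DESeq2 the number was also 9, and without Control M01 it was 9 with a median of 0.30. In females alone the number was 8, and without Dehydrated F03 it was also 8, with a median of 0.27. An unadjusted p under 0.05 was reached by 3 of the 10 (Glp1r, Adra1a and Rxfp3) and by 6.37% of all tested genes. In Rehydrated against Control all 10 estimates were above 0 with a median of 0.20, and without Control M01 9 were, with a median of 0.15. In males alone 8 were above 0, and 9 in females alone and with the replicate block. With all libraries no receptor passed the adjusted threshold for Rehydrated against Control in edgeR, as no gene did (0%). There 2 of 10 (Glp1r and Agtr1a) had an unadjusted p under 0.05, against 7.48% of all genes. Both comparisons use the same Control libraries. In Rehydrated against Dehydrated 2 estimates were above 0, those of Avpr1a and Agtr1a, with a median of -0.06. This number rested on single libraries: it was 5 without Dehydrated F03 or M06, and 4 without Dehydrated F05 or without Rehydrated F03, M04 or M05, and it was 5 in females alone and 4 with the replicate block. None passed the adjusted threshold in edgeR, where 0.0228% of all genes did. There Glp1r and Rxfp3, 2 of 10, had an unadjusted p under 0.05, against 3.88% of all genes. DESeq2 called Glp1r in Dehydrated against Control, where it called 0.176% of all genes, and no receptor in Rehydrated against Control (0.105%) or against Dehydrated (0.0627%).

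Between labelled females and males, averaged over treatments, no receptor passed the adjusted threshold in edgeR, where 0.0342% of all tested genes did. Oxtr had the smallest p: it was at 7.79 ± 2.40 CPM in Control females and 10.9 ± 3.77 in Control males (n = 5 each), and at 9.68 ± 1.89 (n = 6) and 13.7 ± 1.73 (n = 4) in Dehydrated. The Oxtr gap in Control depends in part on libraries whose sex label differs from the letter in the name. Control F03, labelled male, stood at 13.4 CPM, and Control M05, labelled female, at 6.79. Dehydrated M02, labelled female, was the highest of the Dehydrated females at 11.9 CPM. In Rehydrated the sexes were level, at 11.0 ± 0.843 (n = 4) and 11.1 ± 2.38 (n = 5) CPM. The log2 difference of female against male was -0.35 with an SE of 0.13 (unadjusted p = 0.0107, adjusted p = 0.993), and Oxtr was the 1 of 10 receptors with an unadjusted p under 0.05, as were 3.87% of all genes. With the name letter in place of the sex label no receptor passed the adjusted threshold in edgeR either, where 2 of 17558 genes did. Glp1r was at 6.35 ± 1.46 CPM in Control females and 5.03 ± 1.81 in Control males, and at 12.99 ± 6.77 and 12.7 ± 4.68 in Dehydrated. Control M05, labelled female, had the highest Control level of Glp1r, 8.10 CPM, and Control F03, labelled male, was at 3.53. The order of the sexes in Control therefore depends on these labels, which differ from the letters in the names. The response of Glp1r to restriction did not differ detectably between the labelled sexes (difference of the log2 responses, female minus male, -0.29 with an interval of -1.30 to 0.73, adjusted p = 0.927 in edgeR), an interval that is wide beside the response of 1.17. No difference in response between the sexes passed the threshold in edgeR for any receptor, or for any of all tested genes (0%). Among 30 such differences, 3 for each receptor, Rxfp1 in Rehydrated against Control was the 1 with an unadjusted p under 0.05, at 0.64 (SE 0.29, adjusted p = 0.799); of all tested genes 6.05%, 6.18% and 2.53% had one for Dehydrated against Control, Rehydrated against Control and Rehydrated against Dehydrated.

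Avp and Oxt are both made by magnocellular neurons, but Avp itself rose in Dehydrated, so its level cannot be read as the amount of magnocellular tissue alone. Each receptor was set against both over the 29 libraries after the group means were taken out. None of these 20 relations passed a permutation test after adjustment. Glp1r against Avp had Pearson's r = -0.075 (permutation p = 0.685, adjusted p = 0.966) and Spearman's rho = 0.117 (permutation p = 0.531, adjusted p = 0.967), and r = 0.123 without Rehydrated M08 and Control M05, which lie farthest out on Avp. The smallest p of the 20 was that of Agtr1a with Avp by rank, rho = -0.49 (permutation p = 0.00884, adjusted p = 0.177), with r = -0.332 (permutation p = 0.121, adjusted p = 0.807), and r = -0.559 without the 2 libraries farthest from the median of Avp. The largest by r was Avpr1a with Oxt, r = -0.452 (permutation p = 0.0163, adjusted p = 0.215; rho = -0.439, permutation p = 0.0249, adjusted p = 0.232), and r = -0.358 without the 2 farthest libraries. Agtr1a with Oxt was close to it, with r = -0.448 (permutation p = 0.0215, adjusted p = 0.215; rho = -0.403, permutation p = 0.0348, adjusted p = 0.232), and r = -0.42 without them.

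**Figure D5:**
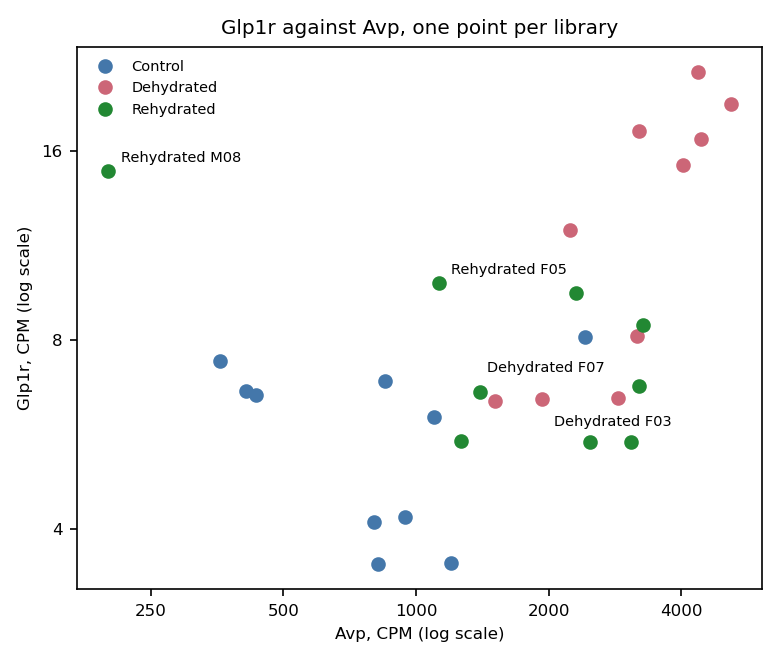
Glp1r against Avp, both in CPM on log scales, with one point per library coloured by treatment. The 5 Dehydrated libraries with the highest Glp1r (15.2 to 21.4 CPM) have Avp from 3203 to 5179 CPM, and Rehydrated M08 lies alone with high Glp1r (14.9 CPM) at the lowest Avp (201 CPM).

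The relation of Glp1r to Avp had a different sign in different groups when each was taken alone, a division made after the pooled values were seen, with 60 relations in all and none past the adjusted threshold. In Dehydrated r was 0.803 (n = 10, permutation p = 0.00675, adjusted p = 0.202) and rho 0.879 (permutation p = 0.00164, adjusted p = 0.0984), with r = 0.646 without F03 and F07. These 2 libraries had the lowest Avp of the group, 1929 and 1512 CPM, beside Glp1r at 6.45 and 6.39, whereas F05 had the highest Avp, 5179 CPM, beside Glp1r at 18.96. In Rehydrated r was -0.694 (n = 9, exact permutation p = 0.0395, adjusted p = 0.576; rho = -0.45, exact permutation p = 0.23, adjusted p = 0.822), but 0.26 without M08 and F05, so the negative sign rested on those libraries. In Control r was -0.141 (n = 10, permutation p = 0.697, adjusted p = 0.86; rho = -0.127, permutation p = 0.733, adjusted p = 0.91), and -0.556 without M04 and M05.

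Agtr1a ran the other way in Dehydrated, with r = -0.652 against Avp (n = 10, permutation p = 0.0385, adjusted p = 0.576; rho = -0.648, permutation p = 0.049, adjusted p = 0.815) and -0.909 without F03 and F07. Against Oxt in the same group it had r = -0.788 (permutation p = 0.00492, adjusted p = 0.202; rho = -0.636, permutation p = 0.0544, adjusted p = 0.815) and -0.465 without F03 and F05. Dehydrated F03, with the highest Agtr1a of its group, had the lowest Oxt, 397 CPM, and Rehydrated F05, with the highest Agtr1a of all libraries, had the next to lowest Oxt of its group, 225 CPM.

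The genes whose level went most like that of Glp1r from library to library were ranked by Spearman's rho over 28 libraries, Control M01 left out and group means removed, among 15133 genes with a mean of at least 1 on the log2 CPM scale. The highest were Vipas39, which takes part in endosomal and lysosomal sorting (rho 0.739), the unnamed ENSJJAG00000033465 (0.712), and Cartpt, the precursor of the feeding peptide CART (0.640). Next came Tp53rk (0.631), Gabpb2 (0.628), the unnamed ENSJJAG00000037085 (0.627), Thap12 (0.617) and the potassium channel subunit Kcns3 (0.614). The lowest were the NMDA receptor subunit Grin3a (-0.699), Zfp521 (-0.651), Sema3f (-0.647) and Nxph4 (-0.641). The other 9 receptors ran from -0.29 (Oxtr) to 0.359 (Mc4r). Avp had 0.098, Oxt 0.0717 and Caprin2 0.39. These values share libraries and depth and were picked as the extremes of a long ranking, so they are a description.

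From the families of the 10 receptors 24 relatives were listed, of which 13 were tested. None passed the threshold in edgeR in Dehydrated or Rehydrated against Control. In the first, 1 of the 13 had an unadjusted p under 0.05, as did 6.37% of all tested genes. In Dehydrated against Control 6 of the 13 were above 0, with a median of -0.14. Esr1, estrogen receptor alpha, was at 2.91 ± 1.46 CPM in Control and 5.66 ± 3.04 in Dehydrated, a log2 difference of 0.82 (SE 0.31, adjusted p = 0.644), larger than that of Esr2. The adrenergic receptors Adrb1 and Adra2c had 0.46 (adjusted p = 0.783) and -0.34 (adjusted p = 0.792). Gcgr and Glp2r, the receptors for glucagon and glucagon-like peptide 2, and Avpr1b and Avpr2 were too low to be tested.

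Among 40 further receptors for peptides and hormones of water balance and feeding, 37 were tested and 20 were above 0 in Dehydrated against Control, with a median of 0.06. None passed in edgeR, and 4 of the 37 had an unadjusted p under 0.05, as did 6.37% of all tested genes. Tacr1, the substance P receptor, was nearest with 12.1 ± 2.65 CPM in Control and 18.3 ± 4.08 in Dehydrated, a log2 difference of 0.59 (SE 0.16, adjusted p = 0.271). Mchr1, the receptor for melanin-concentrating hormone, had -0.31 (adjusted p = 0.587), and Npr1, the receptor for atrial natriuretic peptide, had -0.63 (adjusted p = 0.66). Npr1 varied widely in Control, from 2.51 to 14.8 CPM with a median of 4.46. In Dehydrated it ran from 2.09 to 4.73 CPM with a median of 3.48.

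Of the 13 ligands and ligand-making enzymes, 6 were tested, and Avp, the vasopressin precursor, was the 1 that passed, with a rise of 1.81 on the log2 scale (adjusted p = 0.0388 in edgeR). Among all tested genes 0.125% passed in Dehydrated against Control. Gcg, the precursor of glucagon-like peptide 1, was too low in these punches to be tested, as was Dbh, which makes noradrenaline; glucagon-like peptide 1 and noradrenaline are known to reach the nucleus from the brainstem. Of 42 signalling genes downstream of the receptors 40 were tested, 29 were above 0 with a median of 0.06, and none passed in edgeR. Rgs2, which limits Gq signalling, was the 1 with an unadjusted p under 0.05, with 41.1 ± 13.1 CPM in Control and 28.9 ± 2.03 in Dehydrated (log2 difference -0.49, SE 0.13, adjusted p = 0.222). Of all tested genes 6.37% had an unadjusted p under 0.05 and 49.2% were above 0. The G protein subunit Gnai2 and the adenylyl cyclase Adcy3 had 0.11 each (adjusted p = 0.774 and 0.783). Of 9 accessory proteins 7 were tested, and none passed in edgeR or had an unadjusted p under 0.05; Leprot, which regulates the leptin receptor, had 0.17 (adjusted p = 0.792), and the receptor partners Ramp1 and Ramp2 had -0.15 and -0.23 (adjusted p = 0.793 and 0.803).

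Markers of the cell types that a punch could hold were compared in the same fit. Of 12 magnocellular markers 3 rose in Dehydrated against Control: Avp, Pdyn (1.13, adjusted p = 0.00369) and Caprin2 (0.98, adjusted p = 0.0109). Among all tested genes 0.125% passed there, and 0.114% as rises. Of all 12, 7 were above 0 with a median of 0.10, and 5 were below it, among them Oxt (-0.07). The summed level of the 12, to which Avp, Oxt and Scg2 gave the most, ran from 2148 to 5098 CPM in Control, 3889 to 9352 in Dehydrated and 1765 to 7068 in Rehydrated. Of the suprachiasmatic markers 6 were tested and Vip had 6.89 ± 9.33 CPM in Control and 33.4 ± 19.2 in Dehydrated (2.56, adjusted p = 0.0509), while the other 5 were below 0. Of 6 ependymal, tanycyte and choroid plexus markers Kl passed (1.74, adjusted p = 0.0476) and the summed level ran from 34.8 to 69.1 CPM in Control and 35.2 to 83.1 in Dehydrated. Oligodendrocyte markers were all below 0 (5 of 5, median -0.33), as were endothelial markers (7 of 7, median -0.14, 2 with an unadjusted p under 0.05) and both blood markers, Hba1 (-1.47, adjusted p = 0.489) and Alas2 (-1.62, adjusted p = 0.451). Their part in the receptor levels was not tested. Of all tested genes 49.2% were above 0, and 6.37% had an unadjusted p under 0.05. None of the tested markers of forebrain neurons, other hypothalamic neurons, astrocytes, oligodendrocyte precursors, microglia, mural cells or meningeal fibroblasts passed in edgeR, and their medians lay between -0.20 and 0.10.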

How the data were processed

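The authors' deposited counts are whole fragments per gene, made with featureCounts 1.6.2 on the Ensembl annotation of mJacJac1 with no strand option, per the file headers, so overlapping antisense reads cannot be told apart. No source used here names the aligner. Log2 fold changes, their standard errors and p-values in the authors' deposited tables are DESeq2 output, according to the submitters' processing notes; their 56 columns of values per library were not used.

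The filter on low counts was edgeR's filterByExpr by group (17558 genes kept). With TMM scaling, edgeR 4.0.16 (R 4.3.3) fitted group and sex to all 29 libraries by robust quasi-likelihood (25 residual degrees of freedom); p-values were adjusted by Benjamini and Hochberg's method, and calls are those under 0.05. Intervals are 95% t intervals from the fit. RPKM divides CPM by the deposited exon length. Correlations used log2 CPM (prior count 2) and 100000 permutations within groups; groups of 9 were enumerated. The pipeline was tested on simulated data. Alternatives included DESeq2 1.42.0, other size factors, filters and covariates, a replicate block, each sex alone and each library left out. The text names the 10 receptors throughout, genes of other lists that passed or otherwise the 3 smallest p, Avp and Oxt, and the 8 highest and 4 lowest rho with Glp1r. The receptors and lists were chosen with earlier results of these data known. The labels do not say that each library is 1 animal, so p-values measure the spread between libraries.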

Additional observations from a re-analysis of the deposited data

Results flagged for a closer look

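Of 30 combinations of a receptor and a treatment, 3 held a library whose gap to the nearest other, as a share of the group's range, passed Dixon's critical value; chance gives about 1 in 20. Glp1r stood at 14.9 CPM in Rehydrated M08, where the other 8 libraries ran from 5.50 to 9.87, a gap of 0.533 of the range. Adra1a stood at 2.47 CPM in Control M01, where the other Control libraries ran from 8.39 to 15.1. Agtr1a stood at 7.16 CPM in Dehydrated F03, where the others ran from 0.646 to 3.90.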

How the results depend on the processing

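Glp1r in Dehydrated against Control kept its direction in all 40 alternatives (1.04 to 1.33 on the log2 scale) and stayed past the threshold in 21. The count of receptors called there went from 1 to 0 with only the compared groups (adjusted p = 0.0898), the replicate block (1.16, adjusted p = 0.287), females alone (1.04, adjusted p = 1.00) and males alone (1.33, adjusted p = 0.438), and ran from 0 to 1 with a library left out. Same-named libraries did not deviate together (19 pairs, r from -0.115 to 0.110, and 2 of 23 libraries correlated best with their own name). The labels do not say that a shared name pairs libraries, and these correlations cannot show whether same-named libraries were linked in another way.

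Over all tested genes, Dehydrated against Control gave 22 calls, and 45 with DESeq2, 47 with DESeq2 without Control M01, 11 with only the compared groups, 15 with the replicate block, 0 in females or males alone and 10 to 27 with a library left out. Rehydrated against Control gave 0, and 20, 3 and 2 with DESeq2, DESeq2 without Control M01 and females alone, and 0 to 2 with a library left out. Rehydrated against Dehydrated gave 4, and 16 with DESeq2, 20 with DESeq2 without Control M01, 1 with only the compared groups, 7 with the replicate block, 0 in females, 1 in males and 2 to 9 with a library left out. The causes were not tested.

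No estimate that changed sign had passed the threshold. In females alone these were Lepr (-0.033) in Dehydrated against Control, Lepr (-0.026) in Rehydrated against Control, and Oxtr (0.18), Rxfp1 (0.27) and Lepr (0.0067) in Rehydrated against Dehydrated. In males alone they were Rxfp1 (-0.054) and Rxfp3 (-0.18) in Rehydrated against Control and Esr2 (0.071) in Rehydrated against Dehydrated. With the replicate block they were Avpr1a (-0.12) in Rehydrated against Control, and Oxtr (0.025) and Lepr (0.020) in Rehydrated against Dehydrated. DESeq2 without Control M01 gave Rxfp3 -0.10 in Rehydrated against Control. With a library left out, ranges that crossed 0 were Agtr1a (-0.0050 to 0.52) in Dehydrated against Control, Rxfp3 (-0.10 to 0.12) and Mc4r (-0.053 to 0.088) in Rehydrated against Control, and Rxfp1 (-0.095 to 0.050), Lepr (-0.038 to 0.049) and Esr2 (-0.156 to 0.112) in Rehydrated against Dehydrated. Raw counts were 11 to 153 for Agtr1a and 12 to 126 for Esr2. In Dehydrated their coefficients of variation, 89.6% and 64.2%, were well above the 16.9% and 13.1% that counting alone would give.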
